A study of Homo sapiens with 1 sample.

Results

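Integrins are the cell surface receptors that bind the extracellular matrix, and laminins are major proteins of the basement membrane to which many of them bind. The integrin subunit genes and laminin chain genes were taken by symbol from the protein-coding genes of GENCODE, which gave 37 of 20033 genes on the 24 primary chromosomes. They comprised 26 integrin genes (18 alpha and 8 beta subunits) and 11 laminin genes. The literal symbol pattern also matched 3 genes of integrin-binding proteins, which encode no subunit and were kept apart. All values come from the ATAC-seq peaks of 1 library of the human kidney cancer cell line 786-O, derived from a clear cell carcinoma, carrying an empty vector. ATAC-seq marks open DNA by the insertion of Tn5 transposase. The cells were grown in culture, and the study's vectors were lentiviral, without a statement that the line is a single clone. They served as the control for overexpression of DPF3a, which belongs to the chromatin remodeller SWI/SNF, and the overexpressing library is not analysed here. With no replicate and no other group, the values describe this library and no p-value was computed.

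Each integrin is a pair of 1 alpha and 1 beta subunit, and the pair decides the ligand. Collagens, laminins and proteins with an RGD motif, such as fibronectin and vitronectin, each have their own set of alpha subunits, and another set belongs to leukocytes. A laminin is a trimer of 1 alpha, 1 beta and 1 gamma chain, which assembles inside the cell and is then secreted into the basement membrane. In epithelia, the integrin pair of ITGA6 and ITGB4 anchors cells to laminin in hemidesmosomes, and the tubules of the kidney rest on a basement membrane rich in laminins of the LAMA5 chain.

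The value given for a peak is its fold enrichment, which is the pileup of reads at the summit plus 1, over the genome-wide background pileup of 0.941 plus 1. Pileups ranged from 9 to 300 in the whole list, and the lowest fold was 5.15. Each fold is followed by an exact Poisson 95% interval of its pileup. These intervals cover counting error only, and a summit, as the highest point of its peak, is biased upward. In a bulk library, opening in fewer cells and less opening in each cell cannot be told apart, and DNA copy number was not measured. The median promoter fold of protein-coding genes ranged from 19.6 to 38.1 between autosomes. A promoter peak was present at 61.4% of all protein-coding genes. Of 8 renal marker genes, 5 (PAX8, PAX2, VCAM1, HAVCR1 and EPAS1) had one, whereas LHX1, CA9 and CDH6 had none. That share of 62.5% (24.5 to 91.5) was close to the share of all genes. The counts were 1 of 6 for leukocyte markers (CD14, fold 6.70), 0 of 4 for endothelial markers and 1 of 4 for fibroblast or smooth muscle markers (PDGFRB, fold 6.18).

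To ask which of these genes had an accessible promoter, summits were counted in windows around every annotated transcription start site (TSS) of a gene, reaching 1 kb upstream and 100 bp downstream. A promoter peak was present at 22 of the 37 genes, or 59.5% (exact 95% interval, 42.1 to 75.2), compared with 61.4% of all protein-coding genes. The share was 57.7% for integrins (15 of 26, 36.9 to 76.6) and 63.6% for laminins (7 of 11, 30.8 to 89.1). With the canonical TSS alone, the count was 16 of 37 (43.2%, 27.1 to 60.5), compared with 52.2% of all protein-coding genes. The share over all genes lay inside the interval of the integrin and laminin genes in both cases. The peaks themselves had a lower median. The median of the highest promoter fold was 16.5 over the 22 genes (interval of at least 95% from the ranks, 8.76 to 33.5). Over all protein-coding genes with a promoter peak it was 25.8 (quartiles, 16.0 and 39.2), which lay inside that interval. Of the 22 genes, 7 exceeded 25.8. With promoters of 2.5 kb to both sides, the median over 30 integrin and laminin genes was 20.9. With a score above 200 required, 15 of 37 genes (40.5%) kept a promoter peak, compared with 52.0% of all protein-coding genes.

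**Figure D1:**
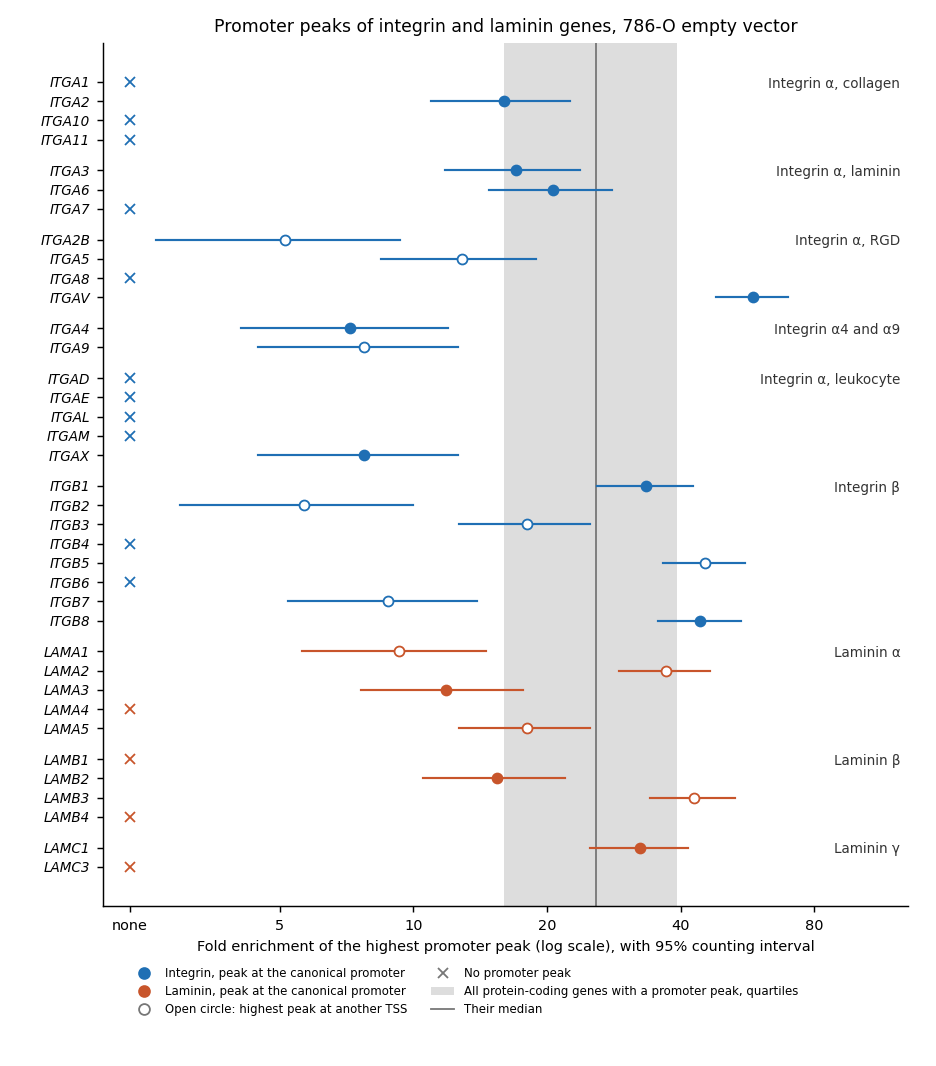
Fold enrichment (log axis) of the highest promoter peak of each integrin (blue) and laminin (orange) gene, grouped by role, with 95% counting intervals. Filled circles lie at the canonical promoter, open circles at the TSS of another transcript, and crosses mark the 15 genes without a promoter peak. The grey band and line give the quartiles and the median of all protein-coding genes with a promoter peak. ITGAV, at 58.2, is highest, and most circles lie left of the line.

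Among the alpha subunits that bind RGD proteins, 3 of 4 had a promoter peak. ITGAV, the shared partner of 5 beta subunits, had the highest promoter fold of all 37 genes. Its summit lay 62 bp upstream of the canonical TSS with a fold of 58.2 (48.0 to 70.0), higher than 91.9% of the promoter folds of protein-coding genes, in a peak 2358 bp wide. The interval of ITGAV overlapped those of ITGB5, ITGB8 and LAMB3, the next in order, and no other. ITGA5, the fibronectin receptor subunit, had a fold of 11.3 (7.21 to 17.1) at its canonical promoter, 19 bp downstream of the TSS, and one of 12.9 (8.44 to 18.9) at the TSS of a retained-intron transcript 19.8 kb downstream. ITGA2B, the platelet subunit, had the lowest fold of the list, 5.15 (2.64 to 9.32), 243 bp upstream of the TSS of a shorter protein-coding transcript that starts 4.31 kb downstream of the canonical one. ITGA8, which the kidney needs for its development, had no summit within 92.1 kb of its canonical TSS.

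For the alpha subunits that bind laminin, ITGA6 had a fold of 20.6 (14.8 to 28.0) at a summit 37 bp before the TSS, and ITGA3, prominent in kidney epithelium, had one of 17.0 (11.8 to 23.8) with the summit 429 bp upstream, at a promoter shared with the noncoding gene PICART1. ITGA7, the muscle subunit, had neither a promoter peak nor a gene-body peak. Only 1 of the 4 collagen-binding alpha subunits was counted, namely ITGA2, with a fold of 16.0 (10.9 to 22.6). ITGA1 was just past the distance limit. Its TSS was inside a peak with a fold of 15.5 (10.5 to 22.0) whose summit was 315 bp downstream, in the promoter of PELO-AS1. ITGA10 and ITGA11 had no promoter peak. Both ITGA4 (7.21, 4.08 to 12.0) and ITGA9 (6.18, 3.34 to 10.7 at the canonical promoter) had weak ones. ITGAX was the sole leukocyte alpha subunit with a promoter peak, at 7.73 (4.46 to 12.6), whereas ITGAL, ITGAM, ITGAD and ITGAE had none.

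Of the beta subunits, 6 of 8 had a promoter peak. ITGB1, which pairs with 12 alpha subunits, had a fold of 33.5 (25.9 to 42.6), at a promoter shared with the divergent transcript ITGB1-DT. ITGB8, the partner of ITGAV in the release of active TGF-β, had a fold of 44.3 (35.5 to 54.7) in a peak 2899 bp wide. That fold exceeded 80.8% of the promoter folds of protein-coding genes but 57.5% of those on its own chromosome 7, whose median was 38.1. ITGB5, another partner of ITGAV, had 4 promoter peaks. The highest (45.3, 36.4 to 55.8) was 8502 bp downstream of the canonical TSS at the start of another transcript, and the canonical promoter had a fold of 21.6 (15.7 to 29.2). The ITGB3 peak (18.0, 12.648 to 24.997) lay 117 bp downstream of the canonical TSS, just outside the window, and was counted through a neighbouring TSS. It was shared with a readthrough gene. The folds of the leukocyte subunits ITGB7 (8.76, 5.23 to 13.9) and ITGB2 (5.67, 2.99 to 9.99) came from internal TSSs. ITGB4, the hemidesmosome subunit, and ITGB6, an epithelial partner of ITGAV, had no promoter peak. The summit nearest the ITGB6 TSS, 5452 bp upstream, had a fold of 89.1 (76.4 to 103), higher than 99.7% of all peaks.

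The ITGB8 promoter is shown as the highest canonical promoter peak whose bases within 50 bp of the summit overlapped no annotated untranslated region. All sequences are from the plus strand of hg38 and are written 5′ to 3′, with motif matches in capitals. Here the capitals mark a hypoxia response element and, on either strand, the TEAD motif CATTCC, the last match beginning 4 bp from the summit.
ITGB8, chr7:20330514-20330614: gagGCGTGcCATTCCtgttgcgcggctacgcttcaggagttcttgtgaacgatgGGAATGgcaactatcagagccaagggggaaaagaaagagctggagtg

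Among the laminin chains, the alpha chains had 4 of 5 promoters with a peak. LAMA3, an alpha chain of epithelial basement membranes, had a fold of 11.9 (7.62 to 17.7) at its canonical promoter, 84 bp downstream of the TSS. LAMA5, the main alpha chain of adult kidney tubules, had a fold of 7.73 (4.46 to 12.6) there, and a higher one of 18.0 (12.648 to 24.997) lay 14.4 kb downstream, shared with LAMA5-AS1. LAMA2, the chain of muscle basement membrane, had no summit within 157.8 kb of its canonical TSS, but a fold of 37.1 (29.1 to 46.7) at a short protein-coding transcript that starts 607.5 kb downstream. The LAMA1 peak (9.28, 5.62 to 14.5) was likewise at an internal transcript. LAMA4, typical of vessel walls, had no promoter peak, and its nearest summit was 292 bp downstream of the TSS with a fold of 6.18 (3.34 to 10.7).

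LAMC1, the gamma chain of most laminins, had a fold of 32.5 (25.01 to 41.5) at a summit 837 bp upstream of the TSS, whereas LAMC3 had no summit within 5137 bp. Of the beta chains, LAMB3 had a fold of 29.4 (22.3 to 38.0) at a summit 757 bp upstream of the canonical TSS and one of 42.8 (34.1 to 53.0) at another TSS 1073 bp downstream, and LAMB2 had one of 15.5 (10.5 to 22.0). LAMB4 had none. LAMB1, the most common beta chain, was counted without a promoter peak although its TSS lay inside a peak of 4558 bp. The summit of that peak was 1416 bp upstream of the TSS, with a fold of 73.7 (62.1 to 86.8). That fold was higher than 99.1% of all peaks and than the promoter fold of every other laminin gene. The median promoter fold was 38.1 on its chromosome 7 and 25.8 over all protein-coding genes with a promoter peak. The peak was counted with promoters of 2.5 kb to both sides of a TSS, or when the peak interval had only to overlap the promoter. Promoters of 1 kb to both sides left it out, and LAMB1 was then counted through a lower peak of 12.4 (8.03 to 18.3) in intron 25, 63.2 kb downstream, near the start of another transcript. ITGA1 gained its peak of 15.5 under that window. With ITGA11, ITGAE and LAMA4 also gained, the count was 27 of 37 genes (73.0%), compared with 65.7% of all protein-coding genes.

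The highest promoter peak was often counted at a TSS other than the canonical one. This held for 11 of the 22 genes and for 21.3% of the protein-coding genes with a promoter peak. Of the 11, 6 (ITGA2B, ITGB2, ITGB3, ITGB7, LAMA1 and LAMA2) had no peak at the canonical promoter. ITGB3, however, was counted through a TSS only 0.026 kb from the canonical one. Among all protein-coding genes, 12299 had a promoter peak and 10454 had one at the canonical TSS. The highest peak was away from the canonical promoter in 2615 genes. In ITGA5, ITGA9 and LAMB3 the intervals of the highest and the canonical peak overlapped. Several promoter peaks were present in 6 of the 22, and in 21.3% of the protein-coding genes with one. The number of annotated start sites differs between genes, and its part in these counts was not tested.

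To see which receptors and trimers had all their genes open, the promoter peaks were set against the known assemblies. Of single protein-coding genes, 61.4% had a promoter peak and 52.2% had one at the canonical TSS. No such share was computed for pairs or trimers. Many pairs share ITGB1 or ITGAV and most trimers share LAMC1, so their counts are not independent. Of 24 integrin pairs, 13 had a promoter peak at both genes, with folds down to 5.15 (ITGA2B with ITGB3) and 5.67 (ITGAX with ITGB2). In 9 pairs both canonical promoters had a peak. These 9 were ITGB1 with ITGA2, ITGA3, ITGA4, ITGA5, ITGA6, ITGA9 or ITGAV, and ITGAV with ITGB5 or ITGB8. The pair of ITGA6 with ITGB4 and that of ITGAV with ITGB6 each lacked the peak of the beta subunit. Of 12 laminin trimers, 4 had promoter peaks at every chain and 2 had them at every canonical promoter. Both consisted of LAMB2 and LAMC1, with either LAMA3 or LAMA5. The trimers with LAMB1 were not among them under the main window. Alternative transcripts of a chain were not told apart. The LAMA3 peak was at the canonical TSS, and for a LAMA3 transcript that starts 183.57 kb downstream the nearest summit was 44.3 kb away.

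**Figure D2:**
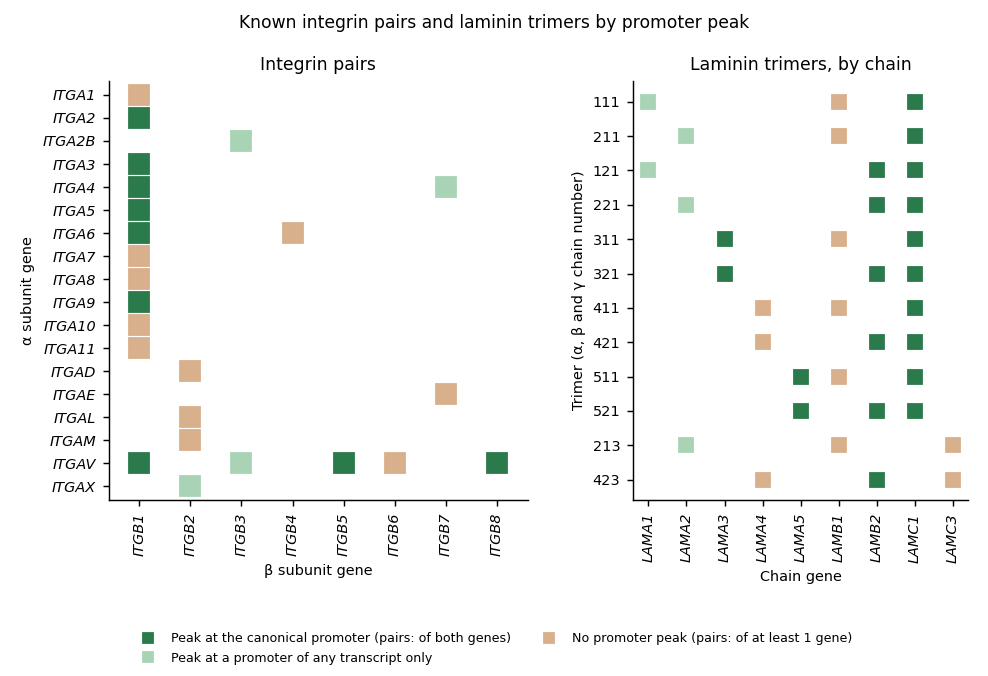
Known integrin pairs (left, alpha subunit genes against beta subunit genes) and laminin trimers (right, rows named by the numbers of the alpha, beta and gamma chains, columns by chain gene). Dark green marks a peak at the canonical promoter (at both genes for pairs), light green one at a promoter of any transcript only and tan none (for pairs, at 1 gene or both). The counts are 13 of 24 pairs and 4 of 12 trimers without tan.

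Base composition was compared between promoters with and without a peak. From 250 bp upstream to 50 bp downstream of the canonical TSS, the median GC content was 69.3% over the 37 genes and 63.7% over all protein-coding genes. It was 71.8% (range, 58.7 to 82.7) in the 16 genes with a canonical promoter peak and 61.3% (31.7 to 79.3) in the other 21. When protein-coding genes were divided into 3 equal groups by GC content, 0 of the 9 genes in the GC-poorest group had a canonical promoter peak, compared with 30.0% of all protein-coding genes in it. These 9 were ITGA10, ITGA2B, ITGAL, ITGAM, ITGB6, ITGB7, LAMA2, LAMA4 and LAMB4. In the middle group the count was 4 of 8 (62.0% of all), and in the GC-richest group 12 of 20 (64.9% of all). The GC-rich promoters without a canonical peak were those of ITGA7, ITGA8, ITGA11, ITGB3, ITGB4, LAMA1, LAMB1 and LAMC3.

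Gene bodies were then examined, counting summits inside a gene and outside the promoter of any gene. The 37 genes held 162 such peaks, and 32 of them (86.5%) had at least 1, compared with 49.7% of all protein-coding genes. They are long genes, with a median length of 81.7 kb against 27.5 kb. At the shares of protein-coding genes in the same deciles of length, 71.3% would have had a gene-body peak, close to the lower end of the exact 95% interval of the 86.5% (71.2 to 95.5). The number of peaks was also set against length. There were 4.08 peaks per 100 kb (3.48 to 4.76), compared with 2.90 over all protein-coding genes. At the densities of protein-coding genes in the same deciles of length, the 37 genes would have held 117 peaks, or 2.94 per 100 kb. The density was 4.01 (3.23 to 4.93) for integrins and 4.17 (3.26 to 5.25) for laminins. A total of 24 of the 37 genes (64.9%) were denser than their decile, compared with 37.2% of the protein-coding genes of deciles 3 to 10, where all 37 lay. The 37.2% was not weighted to the deciles of the 37 genes, of which deciles 8, 9 and 10 held 9, 9 and 6. It includes short genes that seldom hold a gene-body peak (24.4% of decile 3, against 93.3% of decile 10). Leaving out 1 gene at a time, an alternative chosen after seeing the data, gave 3.82 (without LAMC1) to 4.62 (without LAMA2). Peaks within a gene are not independent, which the intervals do not include.

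**Figure D3:**
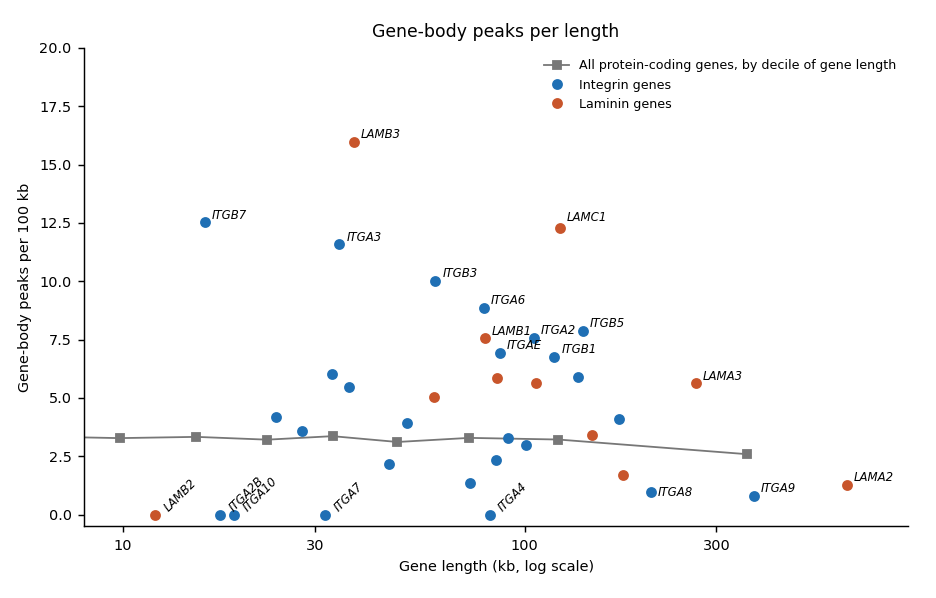
Gene-body peaks per 100 kb against gene length (log axis) for integrin (blue) and laminin (orange) genes, with the density of all protein-coding genes by decile of length in grey. LAMB3, ITGB7, LAMC1 and ITGA3 lie highest, between 11.6 and 16.0, and the 5 genes at 0 are ITGA10, ITGA4, LAMB2, ITGA7 and ITGA2B.

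The density was uneven. By role it was highest in LAMC1 and LAMC3 together at 9.64 peaks per 100 kb (5.89 to 14.9) and lowest in ITGA4 and ITGA9 together at 0.662 (0.137 to 1.93). LAMB3 had the highest density of all, 16.0, with 6 peaks in 37.6 kb. LAMA3 had 15 peaks (5.62). LAMC1 also had 15 (12.3), of which 14 lay in its first intron, within 74.5 kb of the TSS. ITGB5 had 11 (7.89), and ITGB1, ITGA2, ITGA11 and LAMA2 had 8 each. At 633.4 kb LAMA2 was the longest of the genes, and its density was 1.26. The 10 genes with most peaks held 93 of the 162 (57.4%).

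**Figure D4:**
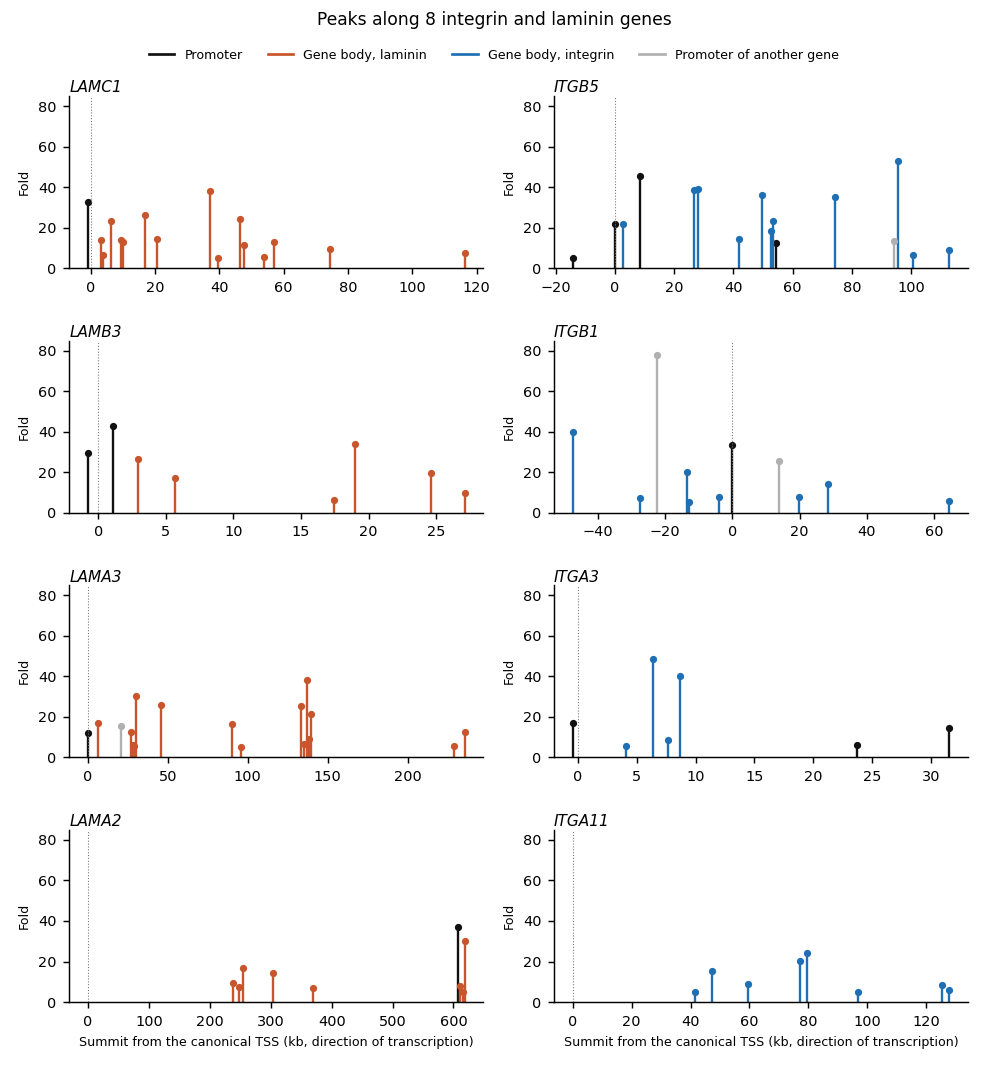
Fold of each peak along 4 laminin genes (left) and 4 integrin genes (right) against the distance of its summit from the canonical TSS in kb, in the direction of transcription. Black lines are promoter peaks, coloured lines gene-body peaks and grey lines summits at the promoter of another gene. LAMC1 peaks crowd the first part of the gene, those of LAMA2 lie far from its TSS, those of ITGB5 run along its length, and ITGA11 has gene-body peaks without any at its TSS.

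Most gene-body peaks were intronic (146, against 16 in exons), and 46 (28.4%) lay in the first intron of the canonical transcript. These shares were not computed for other protein-coding genes. A further 12 summits inside these genes were at promoters of other genes and were not counted, and 8 of the 162 were inside another protein-coding gene too. Of these, 6 were the peaks of ITGB3, which lie in the readthrough gene as well. The median fold was 10.3 (quartiles, 6.70 and 18.6), compared with 9.28 (6.18 and 17.0) for 37699 other gene-body peaks of protein-coding genes. The depth behind many was low, as 37.0% had a pileup under 15, compared with 40.4% of the others.

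In several genes the strongest gene-body peak was higher than the promoter peaks. Among the 19 genes with both kinds of peak, 12 (63.2%, 38.4 to 83.7) had a gene-body peak higher than their highest promoter peak, compared with 34.9% of protein-coding genes with both and with 37.0% at the same deciles of length. A longer gene has more gene-body peaks from which the highest is taken. In 7 of the 12 (ITGA3, ITGA5, ITGA6, ITGB2, ITGB3, ITGB7 and LAMA3) the intervals of the gene-body peak and the promoter peak did not overlap. The share without overlap was not computed for all protein-coding genes, so these 7 have no background beside them. The ITGB2 peak of 22.2 (16.1 to 29.8) had its summit 492 bp downstream of an annotated ITGB2 TSS. With promoters of 1 kb to both sides, it counted as the promoter peak. With 2.5 kb to both sides, the gene-body peaks of ITGA3, ITGA5, ITGB7 and LAMA3 counted as promoter peaks too. ITGB5 had the highest gene-body peak, a fold of 53.1 (43.4 to 64.3) in intron 10, 95.5 kb from the TSS, whose interval overlapped that of its promoter peak of 45.3. In ITGA3 a peak of 48.4 (39.2 to 59.2) in intron 1, 6.42 kb from the TSS, stood beside a promoter fold of 17.0, and the intervals did not overlap. The same held for ITGA5, with 40.7 (32.3 to 50.7) in intron 2 beside 12.9, for ITGA6, with 39.2 (30.9 to 49.0) in intron 1 beside 20.6, and for ITGB3, with the same fold of 39.2 in intron 2, 25.5 kb from the TSS, beside 18.0. ITGAE, the leukocyte subunit that pairs with ITGB7, had no promoter peak but one of 40.7 (32.3 to 50.7) in its first intron, 6.06 kb from the TSS. ITGB1 had one of 39.7 (31.4 to 49.5), 47.4 kb upstream of the canonical TSS in an exon of another transcript. That transcript starts inside the same peak, whose summit lay just past the promoter window. With promoters of 1 kb to both sides, the peak counted as the highest promoter peak of ITGB1. Its interval overlapped that of the peak at the canonical promoter. LAMA3 reached 38.1 (30.0 to 47.8) in intron 21.

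The 50 bases to each side of the summits of 7 of these peaks are given, 1 for each of the 7 genes with the highest gene-body peaks. The capitals mark the hypoxia response element and the ZEB/SNAIL E-box CAGGTG in ITGB5, the CTCF core GCCCCCT in ITGA3 and ITGAE, the TEAD motif in ITGA5 and ITGB3 and a pair of AP-1 sites TGACTCA in ITGA6. The ITGB1 sequence, near an upstream TSS of the gene, held none of the 9 motifs searched.
ITGB5, chr3:124791801-124791901: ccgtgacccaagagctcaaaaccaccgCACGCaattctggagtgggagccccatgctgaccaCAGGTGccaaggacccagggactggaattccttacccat
ITGA3, chr17:50062479-50062579: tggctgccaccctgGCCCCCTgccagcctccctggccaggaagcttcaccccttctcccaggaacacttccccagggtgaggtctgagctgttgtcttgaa
ITGA5, chr12:54411530-54411630: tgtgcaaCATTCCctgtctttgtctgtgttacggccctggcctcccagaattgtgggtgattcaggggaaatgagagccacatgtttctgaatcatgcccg
ITGAE, chr17:3795082-3795182: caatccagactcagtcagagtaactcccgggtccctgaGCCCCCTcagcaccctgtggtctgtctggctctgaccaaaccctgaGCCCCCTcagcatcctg
ITGB1, chr10:33005619-33005719: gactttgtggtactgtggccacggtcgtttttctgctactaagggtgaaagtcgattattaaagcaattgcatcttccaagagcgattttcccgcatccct
ITGA6, chr2:172442155-172442255: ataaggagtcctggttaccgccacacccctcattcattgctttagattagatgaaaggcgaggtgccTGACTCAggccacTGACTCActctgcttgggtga
ITGB3, chr17:47279321-47279421: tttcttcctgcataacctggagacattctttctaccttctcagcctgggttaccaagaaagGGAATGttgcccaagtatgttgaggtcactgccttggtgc
The 2 AP-1 sites of ITGA6 began 17 and 30 bp from the summit. In ITGAE the same CTCF core occurred on both sides of the summit, beginning 12 and 34 bp from it.

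To describe the sequences at these sites as a whole, both strands were searched for 9 motifs, up to 50 bp from each summit. AP-1, the site of FOS and JUN proteins, was read as TGAGTCA or TGACTCA. It was present at 31 of the 162 gene-body summits (19.1%, 13.4 to 26.0), compared with 17.1% of the gene-body peaks of all protein-coding genes. In windows 1 kb away that lay in no peak, it was in 1 of 289 (0.346%, 0.00876 to 1.91). Of 67556 such windows around other gene-body peaks, 1.27% had it. The share was 12.7% for folds under 10, 24.4% for folds from 10 to 20 and 26.3% above, and in the other genes it was 13.6%, 18.6% and 24.1%. The median fold was 15.5 with an AP-1 site and 9.28 without one. The frequency in integrin and laminin genes was therefore close to that of other genes.

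TEAD (CATTCC) was found at 11.7% (7.21 to 17.7) of the gene-body summits and 2.08% of the flanking windows, and RUNX (TGTGGTT) at 6.79% and 1.73%. The hypoxia response element (ACGTG or GCGTG, the first of which also lies inside the E-box CACGTG) was at 12.3% (7.71 to 18.4) of summits and 11.1% (7.70 to 15.3) of flanks. The ZEB/SNAIL E-box was at 8.64% of summits and in 26 of 289 flanks, CTCF (AGGGGGC) at 4.32% and 0.346%, SP/KLF (GGGCGG) at 1.85% and 1.38%, and ETS (CCGGAAG) at 1 summit and no flank. The SMAD palindrome (GTCTAGAC) was at 0 of 162 summits, whose exact 95% interval allows a share of up to 2.25%. At other gene-body peaks of protein-coding genes the shares were 10.2% for TEAD, 5.91% for RUNX and 13.7% for the hypoxia response element, all inside the intervals of the integrin and laminin genes. In the flanking windows of those other peaks they were 5.42% for TEAD, 1.79% for RUNX, 10.8% for the hypoxia response element and 1.23% for CTCF.

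**Figure D5:**
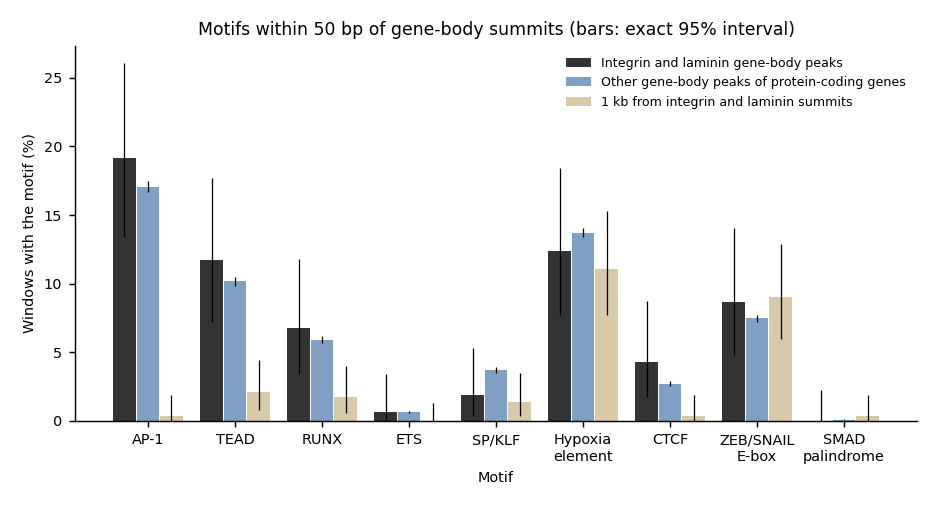
Share (%) of windows with each of 9 motifs within 50 bp of the summit, for the 162 gene-body peaks of integrin and laminin genes (dark), other gene-body peaks of protein-coding genes (blue) and windows 1 kb from the former (tan), with exact 95% intervals. AP-1 is at 19.1%, 17.1% and 0.346%, and the dark and blue bars lie within the dark intervals for all 9.

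The AP-1 sites were spread over 15 of the 32 genes with gene-body peaks, and 17 of the 31 peaks were in the 5 genes with most. ITGA11, a collagen receptor subunit of fibroblasts that had no promoter peak, had an AP-1 site at 5 of its 8 gene-body peaks, and LAMA3 at 5 of 15. ITGB1, with 8 gene-body peaks, LAMB1, LAMB4 and ITGAE, with 6 each, had none. The sites of ITGA11 and LAMA3 are shown with 10 bases to each side and the site in capitals. Both genes were chosen after their values were seen. They lie in introns.
ITGA11 site, chr15:68390680-68390706: tggcctgcagTGACTCAatcctcgttt
ITGA11 site, chr15:68384711-68384737: ttaaccagaaTGAGTCAtgatgccgga
ITGA11 site, chr15:68372481-68372507: ctgtgtgctgTGAGTCActggctgcgg
ITGA11 site, chr15:68355102-68355128: tatccctgtaTGAGTCAgttagcttca
ITGA11 site, chr15:68352566-68352592: tgtgccagggTGACTCAgcatccagac
LAMA3 site, chr18:23695516-23695542: acgcacattaTGAGTCAtccttaaggc
LAMA3 site, chr18:23718377-23718403: agagcaagccTGACTCAttgtgttcca
LAMA3 site, chr18:23719737-23719763: tctttgtagcTGACTCAgatgtggagg
LAMA3 site, chr18:23828655-23828681: gtgatgctgaTGACTCAtctaggaggt
LAMA3 site, chr18:23925025-23925051: ccattgggcaTGAGTCActgggaggtg
In the order given, the folds of the ITGA11 peaks were 5.15, 15.5, 8.76, 20.1 and 24.2, and the sites were centred 6 to 19 bp from the summit. The LAMA3 peaks had folds of 17.0, 5.67, 30.4, 21.6 and 12.4, with the sites 5 to 33 bp away.

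Genes that act with integrins and laminins mostly had a promoter peak. In 4 lists of such genes, 31 of 34 (91.2%, 76.3 to 98.1) had one, compared with 61.4% of all protein-coding genes. The lists were chosen with earlier results of these data known, which the interval does not include. Of the adaptors and kinases that join integrins to actin, 13 of 14 had one. The folds ranged from 8.76 at PARVB to 83.0 (70.7 to 96.8) at ZYX, which encodes zyxin, with 72.7 (61.2 to 85.6) at VCL, the vinculin gene, and 49.5 (40.1 to 60.4) at TLN1, which encodes the integrin activator talin. FERMT3, the kindlin of blood cells, had none. Among basement membrane partners 7 of 8 had a promoter peak, COL4A1 and COL4A2 by 1 shared fold of 12.9. NID1, a nidogen that links laminin to collagen, had none. All 4 hemidesmosome partners were open, from 5.15 at COL17A1 to 64.4 (53.7 to 76.7) at DST. Of the ligands, 7 of 8 had a peak, among them TNC (35.0), SPP1 (33.5), the osteopontin gene, and FN1 (21.6, 15.7 to 29.2), the fibronectin gene. The peaks of VTN (5.67) and THBS1 (6.18, away from the canonical TSS) were weak. NPNT, the ligand of the ITGA8 pair, had none. Of the 3 integrin-binding protein genes, ITGB3BP (44.8) and ITGB1BP1 (34.5) had a promoter peak and ITGB1BP2 did not.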

How the data were processed

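ATAC-seq was analysed as the peak list of 1 empty-vector library of 786-O cells. According to the study's methods and processing notes, the authors trimmed with fastp, used Bowtie2 2.3.4.3 for alignment to hg38, removed duplicates and reads of low mapping quality, and called peaks with MACS2 2.2.6 against a genome-wide background. Whether reads were shifted for Tn5 is not given in the sources used here. The deposited ratio is the fold enrichment at the summit, and the deposited significance is the −log10 p-value and q-value from MACS2. The deposited score follows the −log10 q-value. Its lowest value was 52, and a minimum is stated by the authors only for ChIP-seq. Peaks are named with a wild-type tag, and the group came from the label. Read totals are unknown, and pileups were recovered from the folds as whole numbers to within 1.8e-05.

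Of 88676 peaks, the 88615 on the 24 primary chromosomes were assigned by summit to GENCODE release 44, in the hg38 sequence. A gene body excluded the promoter of any gene of any strand. Shares carry exact Clopper-Pearson and densities exact Poisson 95% intervals. All genes counted were named, with the 10 genes of most gene-body peaks, and sequences came from the highest peak of each of 8 genes, leaving out those that overlap untranslated regions. GC content was read from hg38, because the RefSeq promoter table did not cover enough of the genes. The members, lists and motifs were chosen with earlier results of these data known. A matching gene and a marker gene are not reported here, and the counts leave them out. Score minimums of 100 and 200, other promoter windows, TSS sets and motif windows were the alternatives. Assignment was tested on simulated data. Computations ran in Python 3.11.15 (pandas 2.3.3, numpy 2.4.6, matplotlib 3.10.9, scipy 1.17.1).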

Additional observations from a re-analysis of the deposited data

How the results depend on the processing

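No replicate was present, so the values below have no error between samples. No paired analysis was possible because the control was a single library. A score above 200 lowered the share of all 37 genes with a promoter peak to 40.5%, that of integrins to 34.6% and the number of gene-body peaks to 74. A promoter of 2.5 kb to both sides raised the first to 81.1% (70.3% of all protein-coding genes) and that of integrins to 80.8%. The share with any promoter peak thus lay below that of all genes or above it by window and score. The gene-body density was 2.77 per 100 kb at a score above 100, 1.87 at a score above 200 and 2.97 with the 2.5 kb promoter. Over all 8 settings it stayed 1.34 to 1.61 times that of all protein-coding genes. The share of gene-body peaks with an AP-1 site was 28.4% at a score above 200 and 30.9% within 100 bp of the summit. The other 50 alternative values of such summary results moved by less than their counting interval or 1.5 times. At a score above 100, ITGA2B, ITGA4 and ITGB2 lost their promoter peak, and at a score above 200 ITGA9, ITGAX, ITGB7 and LAMA1 also did. With TSSs of protein-coding transcripts alone, ITGB7 and LAMA1 lost theirs. Of the folds of single promoters, 70 alternatives stayed within the counting interval of the main value and 10 did not. The highest folds of ITGA3, ITGA5, ITGB2, ITGB7, LAMA1 and LAMA3 changed with the 2.5 kb promoter, that of ITGB2 also with 1 kb, and those of ITGB5, LAMA5 and LAMB3 with the canonical TSS alone. Depth limits the weakest peaks most, since a fold of 5.15 rests on a pileup of 9.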
